A study of Vigna subterranea with 10 samples.

Results

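Leaflets of bambara groundnut (Vigna subterranea), an African grain legume, held at 18 °C were compared with leaflets of the same plants at 27 °C, the widest temperature step in the series. The comparison was read on the probe sets that gave a bright signal, whose log2 values averaged 10 or more over the 9 RNA arrays, and 7017 of 36578 soybean probe sets (19.2%) met that rule. All groups were of genotype S19-3. The study raised 3 plants in soil columns under a 12 h photoperiod, and each plant gave 1 fully expanded leaflet at 27 °C, then 1 at 23 °C and finally 1 at 18 °C. The groups used here were therefore 3 arrays at 18 °C (called very sub-optimal by the study) and 3 arrays at 27 °C (optimal), with the 3 arrays at 23 °C (sub-optimal) given beside them. Because the same plants were cooled stepwise, temperature cannot be told apart from leaf age, time since sowing, order of sampling or earlier sampling of the plant. The labels do not tie replicate numbers to plants, and they give the time at each temperature in 2 ways, so no duration is stated here. No bambara groundnut array was used, and the RNA was hybridised to the Affymetrix Soybean GeneChip, on which a probe set can bind several members of a gene family.

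On the bright probe sets, arrays of 1 temperature correlated at 0.91 to 0.941 and arrays at 18 °C with arrays at 27 °C at 0.842 to 0.875, across probe sets. Array medians over all probe sets were 7.889 to 8.006 at 18 °C, against 8.05 to 8.11 at 27 °C, while over the bright probe sets all 9 medians lay between 11.32 and 11.45. Of 9 marker probe sets of leaf mesophyll 5 were bright, and none was called. The light-harvesting gene CAB3 stood at 18.18 at 18 °C, against 18.45 at 27 °C on its brightest probe set, and the Rubisco activase RCA14 at 17.61 at 18 °C, against 17.80 at 27 °C. All 5 bright ones averaged lower at 18 °C, with 18 °C minus 27 °C between -0.75 (another CAB3 probe set) and -0.19. Of 18 seed storage marker probe sets 1 was bright (the glycinin GY1, not called, adjusted p = 0.432), and of 5 root nodule markers none was bright (means of at most 6.53 at 18 °C and 6.22 at 27 °C). Averaged over each list, mesophyll markers stood at 10.7 to 12.2 across arrays at 18 °C, against 11.7 to 12.6 at 27 °C. Seed markers stood at 5.23 to 6.30 at 18 °C, against 6.37 to 6.76 at 27 °C, and nodule markers at 5.23 to 6.01 at 18 °C, against 3.77 to 6.03 at 27 °C. Their part in the results was not tested.

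A leaf builds sugar in the chloroplast, where light-harvesting complexes and the photosystems drive electron transport and the Calvin cycle fixes carbon. Sugar is stored as starch by day and broken down again by glucan phosphorylases and amylases, and glycolysis and the mitochondria turn it into energy and carbon skeletons. Cooling slows enzymes and membrane transport more than light capture, and leaves moved to low temperature are known to be a setting in which photosynthesis, sugar storage, phosphate supply and protein turnover are all readjusted. Plants of tropical origin are known to be sensitive to temperatures well above freezing.

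Of the 7017 bright probe sets, 646 (9.21%) differed between 18 °C and 27 °C at adjusted p under 0.05, against 778 of all 36578 (2.13%), so 132 calls lay among dimmer probe sets. Differences are given as 18 °C minus 27 °C in log2 units, ± SE of the fit with 3 arrays at each temperature. Adjusted p comes from limma with Benjamini-Hochberg adjustment over all probe sets, and "rose", "fell" and "called" refer to adjusted p under 0.05. Probe sets called higher at 18 °C numbered 406 (5.79%) and those called lower 240 (3.42%), a split of 62.8% higher. This split moved with the scaling of the arrays. After each array was centred on its median, a shift of 0.12 that took the median difference of the bright probe sets to 0.17, 531 were higher and 177 lower (75.0% higher), and after quantile normalisation 325 were higher and 296 lower (52.3% higher). The median difference over the bright probe sets was 0.05. Rises had a median size of 1.17 and reached 7.96, with 60 of at least 2 and 20 of at least 3. Falls had a median size of 1.26 and reached 6.94, with 31 of at least 2 and 4 of at least 3.

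The count depended on how the spread between arrays was estimated. The moderated test used here draws the spread of each probe set towards a prior spread that follows its level, with the robust option. With 1 common prior spread for all levels, and without the robust option, limma called 12 of the bright probe sets (11 higher, 1 lower), all of them among the 646. The level trend and the robust option were not changed separately. The gene-by-gene test that the methods name, run here over all probe sets, called 0 of the bright ones after adjustment. Before adjustment limma gave 2292 bright ones a p under 0.05. The study ran its test only on probe sets detected on every array, and it reported changed genes at 18 °C after correction. That filter was not applied here, so the 0 is not a repeat of the study's test. The study also reports that part of its most changed genes matched changes in RNA-seq reads of the same RNA samples. Leaving out 1 array at 18 °C or 27 °C left 310 to 422 of the 646 called, fewest without 27 °C replicate 2, and 258 were called under all of 14 alternatives other than the common prior spread and the methods' test. In none of the alternatives did a called probe set change sign. The 3 arrays at 18 °C did not overlap the 3 at 27 °C for 2694 of the bright probe sets (38.4%), which include all 646 calls. A lack of overlap in a called gene is therefore no further support for it. This share was counted over the bright probe sets only.

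Calls were more frequent on brighter probe sets, where replicates lay closer together. Of 2922 probe sets with a mean of 10 to 11, 92 were called (3.15%), with a median SD of 0.352. Of 668 probe sets averaging 14 or more, 163 were called (24.4%), with a median SD of 0.171. The level of 10 is a rule of convenience. Of 303 probe sets just inside it, with means of 10 to 10.1, 13 were called and the median difference was -0.02, and of 349 just outside, with means of 9.9 to 10, 10 were called and the median difference was -0.03. Of the members, 6195 reached 10 at both temperatures, 390 at 18 °C alone and 392 at 27 °C alone. Among all 6268 probe sets that reached 10 at both temperatures, members or not, 557 were called (358 higher, 199 lower). Some genes named below averaged under 10 at 27 °C and reached the level through other arrays. Among them are GIGANTEA (8.63 at 27 °C), an AMP-dependent synthetase (9.06), a peroxidase (9.18) and MDH-1 (9.32). Some named falls averaged under 10 at 18 °C and reached the level through other arrays. These include nitrite reductase 1, the CCP-like mitochondrial carrier, an O-methyltransferase, GASA3 and the larger fall of copper/zinc superoxide dismutase 1. On 204 bright probe sets, 59 of them called, a value at 18 °C or 27 °C exceeded 16, the highest log2 value that a 16-bit scan allows, so the scale includes an unknown step and differences may not be true log2 fold changes.

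**Figure D1:**
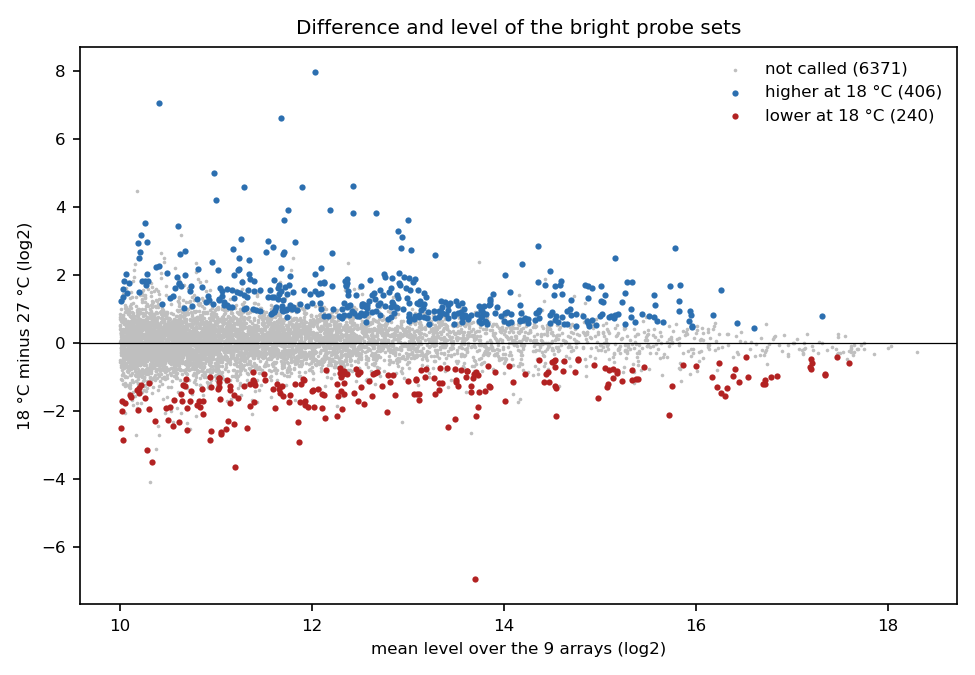
Difference between 18 °C and 27 °C (log2 units, 18 °C minus 27 °C) against the mean level over the 9 arrays (log2) for the 7017 bright probe sets. Blue points are the 406 called higher at 18 °C, red points the 240 called lower and grey points the 6371 not called, and small differences are called mainly on the right, where replicates lie closer together.

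Names were available for 827 of the bright probe sets, 360 through a gene symbol of the array's annotation and 467 through the study's descriptions, and 320 of the 646 calls had one. The described probe sets were picked by the study as changed on these same arrays, so counts of them are not independent evidence of a direction. For that reason the lists below keep probe sets named by array symbol apart from described ones. Of the 360 with a symbol, 30 rose and 19 fell (median 0.06), and 28 of the 360 had also been picked by the study. Of the 467 described, 182 rose and 89 fell (median 0.60). That is 58.0% called, against 13.6% of those with a symbol and 9.21% of all bright probe sets. Counts of described probe sets in each list below are to be read beside this 58.0%, and counts of symbol-named ones beside the 13.6%. Among 257 gene loci with at least 2 bright probe sets, 30 had at least 2 called, and in all 30 the called probe sets changed in 1 direction.

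Both of the largest named rises were in the list for phosphate recovery, which plants are known to switch on when cellular phosphate is short. A pyridoxal phosphate phosphatase-related gene of the haloacid dehalogenase family gave 14.81, 15.19 and 15.66 in the 3 leaflets at 18 °C, against 5.55, 8.30 and 7.93 at 27 °C. Purple acid phosphatase 17, which releases phosphate from organic compounds, gave 14.01, 14.40 and 14.71 at 18 °C, against 6.70, 7.36 and 9.16 at 27 °C. SPX domain gene 1, whose domain senses the phosphate supply of the cell, gave 13.66, 13.79 and 14.38 at 18 °C, against 9.99, 9.68 and 10.37 at 27 °C. For each of the 3 genes every leaflet at 18 °C lay more than 3 units above every leaflet at 27 °C, and the spread was widest at 27 °C for both phosphatases. The differences were 7.96 ± 0.60 (adjusted p = 0.000111), 6.63 ± 0.56 (0.000176) and 3.93 ± 0.26 (5.21e-05), and all 3 were also called with 1 common prior spread. Both phosphatases averaged less at 27 °C (7.26 and 7.74) than the medians of those arrays over all probe sets (8.05 to 8.11), and they reached the level of 10 through the 18 °C and 23 °C arrays. No detection calls were used here, so the size of these 2 differences is uncertain. At 23 °C, set against the same 27 °C arrays, they were 6.36 ± 0.60, 5.16 ± 0.56 and 1.27 ± 0.26, the last not called (adjusted p = 0.0582). All 5 described probe sets of the phosphate list rose, picked by the study on these arrays, and 3 of the 5 remained with any 1 array at 18 °C or 27 °C left out. An acid phosphatase of subfamily IIIB (1.14 ± 0.24) and pyrophosphorylase 4 (0.95 ± 0.20) lost their calls without any 1 of these 6 arrays (adjusted p between 0.059 and 0.119 for the phosphatase and between 0.0684 and 0.116 for the pyrophosphorylase) or without 23 °C replicate 3 (0.0646 and 0.0573). None of the 6 probe sets with a phosphate symbol, among them PHT1-8, PHR7 and PAP14, was called by limma, and their median difference was -0.14. The third-largest named rise was of another haloacid dehalogenase-like hydrolase, outside the lists, with 14.40, 14.65 and 14.82 at 18 °C, against 10.49, 9.92 and 9.64 at 27 °C (4.61 ± 0.23, adjusted p = 1.71e-05).

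**Figure D2:**
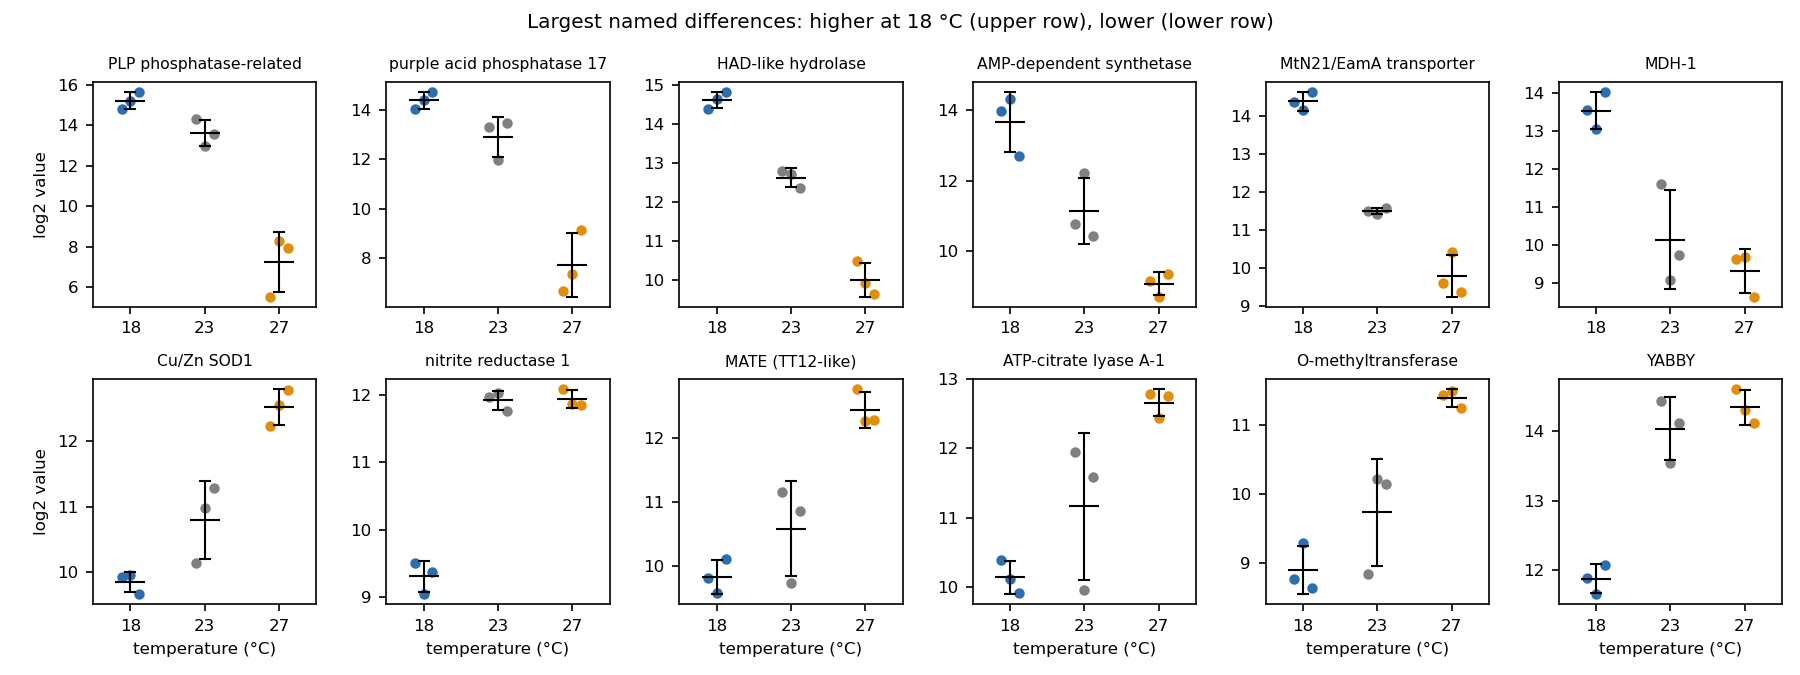
Log2 values at 18, 23 and 27 °C for the 6 named genes with the largest rise (upper row) and, lower row, 6 of the largest named falls, each point 1 leaflet, with the mean as a long bar and 1 SD as error bars (n = 3 per temperature). The genes were picked among calls whose 18 °C and 27 °C points do not overlap. The 23 °C points lie near the 18 °C points in some panels (PLP phosphatase) and near the 27 °C points in others (nitrite reductase 1, YABBY).

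In the list for glycolysis and pyruvate metabolism the described probe sets and those named by symbol gave different counts. Of 10 described probe sets, chosen by the study on these arrays, 9 rose and 1 fell, and all 10 calls remained with any 1 array at 18 °C or 27 °C left out. Their median was 1.63, beside 0.60 over all described probe sets, of which 58.0% were called, and 0.05 over all bright probe sets. Of 7 with an array symbol 1 rose (GND, 6-phosphogluconate dehydrogenase of the pentose phosphate pathway, 0.86 ± 0.12), and the other 6 lay between -0.39 and 1.40, among them FBA (-0.39), a fructose bisphosphate aldolase, ADH2 (-0.02), an alcohol dehydrogenase, and PEPC17 (0.28), a phosphoenolpyruvate carboxylase. NADP-malic enzyme 4, which makes pyruvate and NADPH from malate, had the largest difference of the list. Its values were 16.34, 16.03 and 15.91 at 18 °C, against 13.87, 13.75 and 13.12 at 27 °C (2.51 ± 0.28, adjusted p = 0.00104). Phosphofructokinase 7, the committing step of glycolysis, gave 11.89, 11.87 and 11.75 at 18 °C, against 9.64, 9.13 and 9.61 at 27 °C (2.38 ± 0.26, adjusted p = 0.000852). Pyruvate orthophosphate dikinase, which regenerates phosphoenolpyruvate, gave 15.004, 15.50 and 14.88 at 18 °C, against 12.64, 12.86 and 12.96 at 27 °C (2.31 ± 0.28, adjusted p = 0.00203). In all 3 genes the lowest leaflet at 18 °C lay at least 1.93 units above the highest at 27 °C.

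Enolase, which forms phosphoenolpyruvate, gave 16.52, 16.38 and 16.66 at 18 °C, against 14.73, 15.05 and 14.41 at 27 °C (1.79 ± 0.17, adjusted p = 0.000317). The cytosolic glyceraldehyde-3-phosphate dehydrogenase GAPC1 gave 12.87, 12.84 and 12.74 at 18 °C, against 11.03, 11.46 and 11.02 at 27 °C (1.65 ± 0.19, adjusted p = 0.00135). For enolase and GAPC1 the 18 °C leaflets lay closer together (SD 0.14 and 0.07) than the 27 °C leaflets (SD 0.32 and 0.25). A probe set with the array symbol GAPC1 differed by 0.12 and was not called. The probe set that rose is named GAPC1 only by the study's description, so the probe sets may belong to different genes. The steps of the pathway differed in what they showed at 23 °C, against the same 27 °C arrays. NADP-malic enzyme 4 (2.21 ± 0.28), phosphofructokinase 7 (2.11 ± 0.26) and the dikinase (1.81 ± 0.28) were called there, while enolase (-0.14 ± 0.17, adjusted p = 0.877) and GAPC1 (0.01 ± 0.19, adjusted p = 0.997) were not. Outside the naming rule, and chosen after their values were seen, were phosphoenolpyruvate carboxykinase 1 (1.62 ± 0.22), which starts the making of sugar from organic acids, fructose-2,6-bisphosphatase (1.62 ± 0.22), a pyruvate kinase (0.96 ± 0.13) and NADP-malic enzyme 3 (0.77 ± 0.13). The single fall among the 10 was that of a phosphoglycerate mutase family gene (-1.38 ± 0.18), also noted afterwards.

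**Figure D3:**
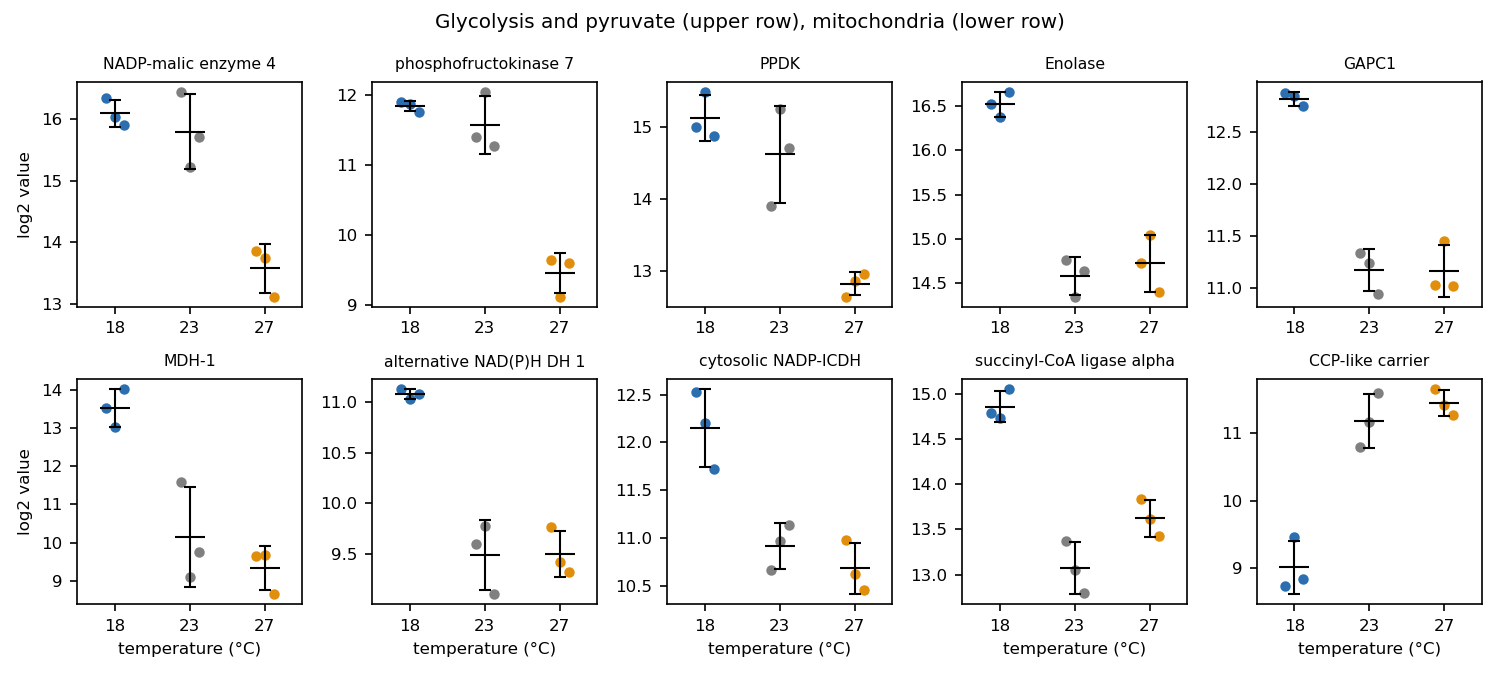
Log2 values at 18, 23 and 27 °C for 5 genes of glycolysis and pyruvate metabolism (upper row) and 5 of the mitochondrial list (lower row), each point 1 leaflet, with the mean as a long bar and 1 SD as error bars (n = 3 per temperature). At 23 °C NADP-malic enzyme 4, phosphofructokinase 7 and PPDK lie near their 18 °C values, and enolase, GAPC1 and the alternative NAD(P)H dehydrogenase near their 27 °C values.

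Of 26 described probe sets of mitochondrial respiration and the citric acid cycle, chosen on these arrays, 16 rose, 2 fell and 8 were not called (-0.68 to 0.90), with a median of 0.82, and 13 to 17 of the 18 calls remained with 1 array at 18 °C or 27 °C left out, fewest without 18 °C replicate 1, 27 °C replicate 2 or 27 °C replicate 3. The malate dehydrogenase MDH-1, named by array symbol and also picked by the study, rose most, with 13.54, 13.04 and 14.02 at 18 °C, against 9.64, 9.68 and 8.66 at 27 °C (4.21 ± 0.55, adjusted p = 0.00308). The alpha subunit of succinyl-CoA ligase, a step of the cycle that yields a nucleoside triphosphate, gave 14.78, 14.74 and 15.05 at 18 °C, against 13.84, 13.61 and 13.43 at 27 °C (1.23 ± 0.17, adjusted p = 0.00415). A mitochondrial substrate carrier described as CCP-like went the other way, with 8.74, 9.47 and 8.84 at 18 °C, against 11.66, 11.41 and 11.28 at 27 °C (-2.43 ± 0.29, adjusted p = 0.00154). Another 2 probe sets with the symbol MDH-1 differed by 0.60 and 0.49 and were not called.

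Alternative NAD(P)H dehydrogenase 1, which feeds electrons to the respiratory chain without pumping protons, rose by 1.58 ± 0.28 (adjusted p = 0.0136) and the cytosolic NADP-dependent isocitrate dehydrogenase by 1.47 ± 0.25 (adjusted p = 0.0128). Each of them was lost without 18 °C replicate 1 (adjusted p = 0.0653 and 0.065), 18 °C replicate 2 (0.0529 and 0.057), 27 °C replicate 2 (0.0556 and 0.0581) or 27 °C replicate 3 (0.0558 and 0.0594). Among the other risers, chosen after their values were seen, were parts of most stages of respiration. These were aconitase 3 (0.72 ± 0.11), succinate dehydrogenase 1-1 (0.81 ± 0.12), the pyruvate dehydrogenase component dihydrolipoamide acetyltransferase (0.85 ± 0.14), a delta or epsilon subunit of the F1 ATP synthase (0.81 ± 0.11), ADP/ATP carrier 3 (0.82 ± 0.12) and the Tom7 subunit of the protein import pore (1.19 ± 0.10). Of the 6 other probe sets with an array symbol, which include the alternative oxidases AOX2 and AOX3, none was called (-0.31 to 0.60). In the comparison of 23 °C with the same 27 °C arrays, 1 of the 26 described probe sets was called (median 0.17), where 255 of all bright probe sets (3.63%) were.

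Enzymes that mobilise starch and carry sugar phosphates across the plastid envelope were among the largest differences that appeared at 18 °C. Glucose-6-phosphate/phosphate translocator 2, which exchanges hexose phosphate for phosphate, gave 13.61, 14.82 and 14.35 at 18 °C, against 10.34, 11.51 and 10.08 at 27 °C (3.61 ± 0.37, adjusted p = 0.000653). An alpha-glucan phosphorylase 2 probe set, for an enzyme that releases glucose 1-phosphate from glucans, gave 14.85, 15.30 and 15.46 at 18 °C, against 12.22, 11.78 and 11.77 at 27 °C (3.28 ± 0.21, adjusted p = 3.36e-05). At 23 °C neither lay above 27 °C (-0.43 ± 0.37 and -0.35 ± 0.21, adjusted p = 0.812 and 0.676). Another probe set described as alpha-glucan phosphorylase 2, chosen after its value was seen, fell by 0.91 at 18 °C, so the 2 probe sets with this description differed in direction.

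The beta-amylase BMY2, which cuts maltose from starch, rose on 2 probe sets, by 2.66 ± 0.43 and 2.02 ± 0.30. The larger rise, with leaflets of 14.19, 14.30 and 12.71 at 18 °C, against 10.89, 10.67 and 11.67 at 27 °C, was not called when 18 °C replicate 1 (adjusted p = 0.0559) or 27 °C replicate 2 (0.0525) was left out. A UDP-glucose 4-epimerase-like gene rose by 1.87 ± 0.26. Of the 19 described starch and sugar probe sets, chosen on these arrays, 10 rose and 6 fell (median 0.91), and 11 or 12 of the 16 calls remained with 1 array at 18 °C or 27 °C left out, fewest without 18 °C replicate 1, 27 °C replicate 1 or 27 °C replicate 3. Risers noted after their values were seen were UDP-glucose pyrophosphorylase 2 (1.41 ± 0.12) and starch branching enzyme 2.2 (1.03 ± 0.16). At 23 °C, set against the same 27 °C arrays, 1 of the 19 was called higher and 6 lower (median -0.34). Of 11 probe sets with an array symbol, 2 rose, both BMY2, and the others, among them sucrose transporter SUT1, lay between -0.46 and 0.46.

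Of 27 described photosystem and light-harvesting probe sets, chosen by the study on these arrays, 24 fell, 2 rose and 1 was not called (-0.82), with a median of -0.95, and the counts were the same after centring and after quantile normalisation. Of the 26 calls, 22 to 26 remained with 1 array at 18 °C or 27 °C left out, fewest without 18 °C replicate 1. A light-harvesting complex II gene, whose protein gathers light for photosystem II, gave 15.49, 15.42 and 15.36 at 18 °C, against 16.85, 16.88 and 16.99 at 27 °C (-1.48 ± 0.08, adjusted p = 1.83e-05). Photosystem I subunit F gave 15.30, 15.76 and 15.17 at 18 °C, against 16.47, 16.73 and 16.93 at 27 °C (-1.30 ± 0.16, adjusted p = 0.00171). Photosystem I subunit O gave 12.68, 13.06 and 13.12 at 18 °C, against 14.08, 14.17 and 14.42 at 27 °C (-1.27 ± 0.16, adjusted p = 0.00241). The gaps between the 18 °C and 27 °C leaflets of these genes were 0.71 to 1.36 units.

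Among the described probe sets falls were found in the antenna and in the photosystems themselves. Noted after their values were seen were 2 probe sets of light-harvesting complex II subunit B1 (-0.97 ± 0.09 and -1.21 ± 0.09), 2 of photosystem I light-harvesting gene 3 (-0.90 ± 0.08 and -1.22 ± 0.07), and photosystem II subunit O-2 of the water-splitting complex (-1.09 ± 0.09). Of 8 probe sets with an array symbol, PSAD of photosystem I fell (-1.28 ± 0.26), NDHK rose (1.20 ± 0.20) and 6 were not called (-0.76 to 0.33, median of the 8 -0.36), among them the 3 of CAB3 and PETC of the cytochrome b6f complex (-0.02). PSAD lost its call without any 1 of 18 °C replicates 1, 2 and 3 or 27 °C replicates 2 and 3 (adjusted p between 0.0556 and 0.128), and its other probe set was not called (-0.76). All 3 risers, described or with a symbol, belonged to the NDH complex or the complex I family. NDH-dependent cyclic electron flow 1, a subunit of the chloroplast complex that cycles electrons around photosystem I, gave 15.32, 15.35 and 15.06 at 18 °C, against 13.25, 13.09 and 13.09 at 27 °C (2.10 ± 0.15, adjusted p = 6.08e-05). NDHK and a NADH-ubiquinone/plastoquinone complex I protein (1.07 ± 0.15), both noted after their values were seen, were the others. At 23 °C NDH-dependent cyclic electron flow 1 lay 1.91 ± 0.15 above the same 27 °C arrays (called), and the light-harvesting complex II gene -0.44 ± 0.08 from them (called), while the photosystem I subunits F and O were not called (-0.16 and -0.44).

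**Figure D4:**
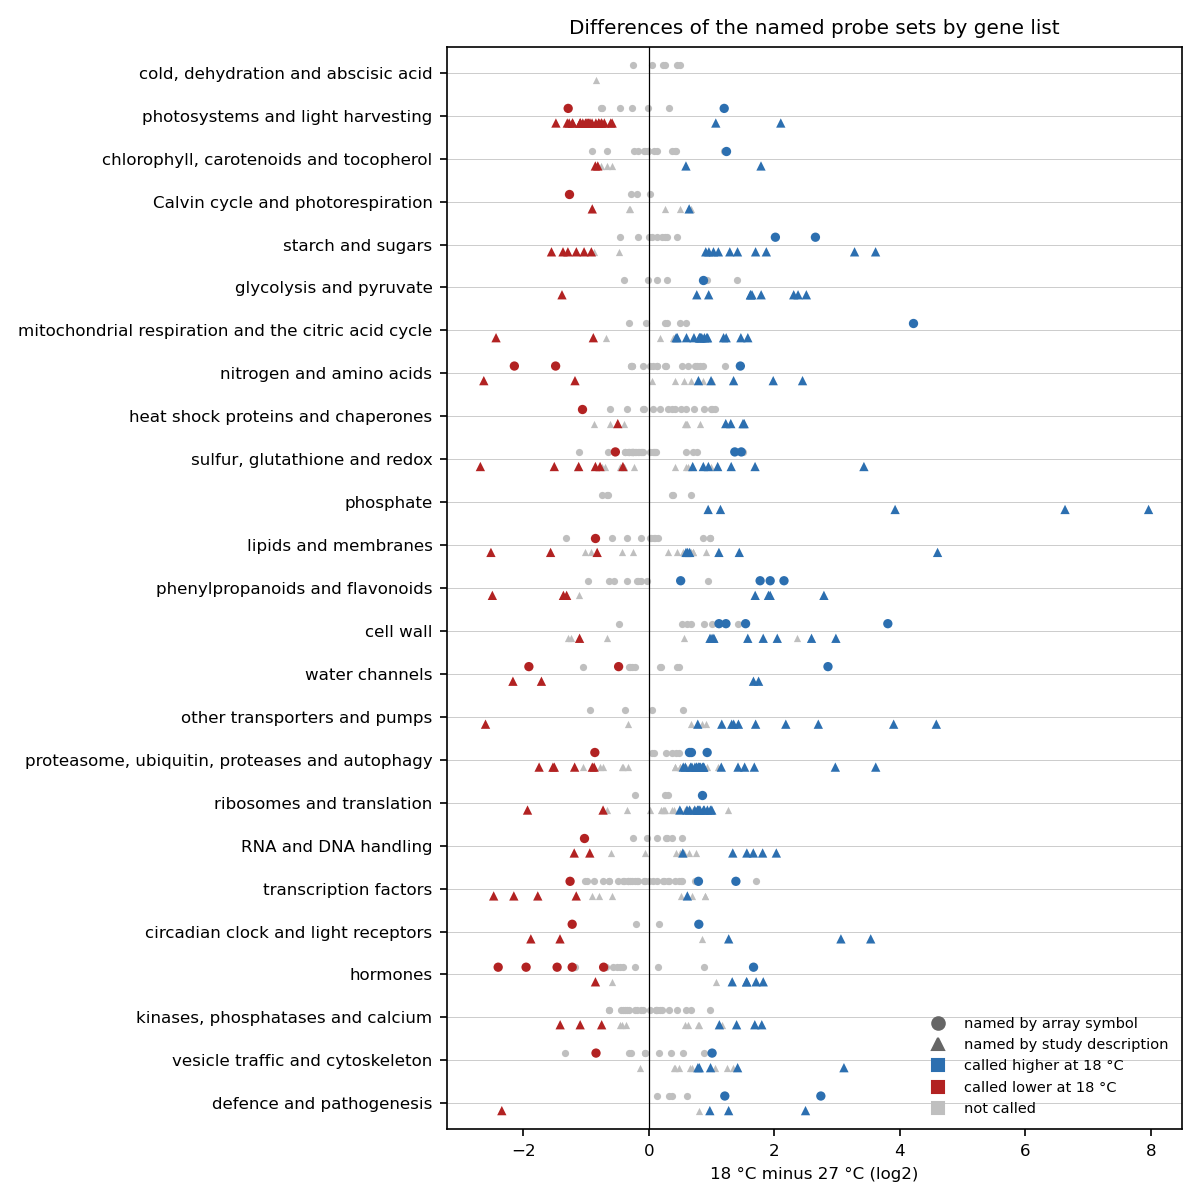
Difference between 18 °C and 27 °C (log2 units) of the 671 named probe sets in 25 gene lists, 1 mark per probe set, with circles for names by array symbol, triangles for names by the study's descriptions, blue and red for calls and grey for no call. The described photosystem probe sets lie left of 0 except for 2, those of glycolysis right of 0 except for 1, and grey circles cluster around 0.

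Pigment genes went in both directions. CHLH, the magnesium chelatase subunit at the start of chlorophyll synthesis, gave 16.23, 16.21 and 16.06 at 18 °C, against 14.64, 15.04 and 15.13 at 27 °C (1.23 ± 0.13, adjusted p = 0.000742). Phytoene synthase, the entry step of carotenoid synthesis, gave 15.92, 16.23 and 15.75 at 18 °C, against 14.13, 14.57 and 13.83 at 27 °C (1.79 ± 0.21, adjusted p = 0.00129). Both genes stood as high or nearly as high at 23 °C, 1.42 ± 0.13 and 1.67 ± 0.21 above the same 27 °C arrays. Zeta-carotene desaturase rose by 0.59 ± 0.13, a call lost without any array at 18 °C, 27 °C replicate 2 or 3, or 23 °C replicate 1 or 3 (adjusted p between 0.0512 and 0.151), with the 6 arrays alone (0.081) and after quantile normalisation (0.0872). A plastid fibrillin (-0.85 ± 0.12) and isoprenoid F of the plastid isoprenoid pathway (-0.81 ± 0.11) fell. In the Calvin cycle and photorespiration list, FBP, a fructose bisphosphatase, fell (13.73, 13.73 and 13.83 at 18 °C, against 15.06, 14.69 and 15.34 at 27 °C, -1.26 ± 0.19, adjusted p = 0.00577), as did a gene matched to D-glycerate 3-kinase, the closing enzyme of photorespiration (-0.90 ± 0.11). Serine hydroxymethyltransferase 2 rose by 0.64 ± 0.14, but without any 1 of 18 °C replicates 1 and 2 and 27 °C replicates 1, 2 and 3, or 23 °C replicate 3, it was not called (adjusted p between 0.0696 and 0.149), nor with the 6 arrays alone (0.0529) or after quantile normalisation (0.111). The other 8 probe sets of that list lay between -0.31 and 0.68.

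Nitrite reductase, the plastid enzyme that makes ammonium out of nitrite, fell on all 3 of its named probe sets. Nitrite reductase 1 gave 9.50, 9.05 and 9.37 at 18 °C, against 12.08, 11.86 and 11.86 at 27 °C (-2.63 ± 0.21, adjusted p = 0.000126), and it was the only fall called with 1 common prior spread. The probe sets with the symbol NIR lay at -2.14 ± 0.27 and -1.48 ± 0.26, the smaller not called without 18 °C replicate 2 (adjusted p = 0.0546), 27 °C replicate 1 (0.0585) or 27 °C replicate 3 (0.0594). At 23 °C the 3 lay between -0.09 and 0.09 of the same 27 °C arrays. Amino acid permease 7, a membrane importer of amino acids, rose (12.86, 12.62 and 11.94 at 18 °C, against 9.96, 10.29 and 9.82 at 27 °C, 2.45 ± 0.29), as did a gene matched to an aminotransferase (1.98 ± 0.24). Of the 21 nitrogen probe sets with an array symbol, 18 were not called (-0.29 to 1.21), among them those of glutamine synthetase.

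Redox genes went in both directions. S-adenosyl-L-homocysteine hydrolase, which clears the by-product of methylation reactions, gave 15.73, 15.65 and 15.36 at 18 °C, against 13.81, 14.06 and 13.79 at 27 °C (1.69 ± 0.13, adjusted p = 0.000126). A peroxidase rose by 3.43 ± 0.46. The superoxide dismutase SODB gave 15.68, 15.71 and 16.09 at 18 °C, against 14.87, 14.15 and 14.03 at 27 °C (1.47 ± 0.21, adjusted p = 0.0047). The copper/zinc superoxide dismutase 1, which detoxifies superoxide as SODB does, fell on 2 probe sets by 2.68 and 1.51, the larger with 9.91, 9.95 and 9.66 at 18 °C, against 12.23, 12.56 and 12.78 at 27 °C. Of 33 probe sets with an array symbol 2 rose and 1 fell, with a median of -0.21, and 3 rose and 0 fell after centring. Of 25 described ones, chosen on these arrays, 7 rose and 6 fell with a median of -0.23, against 10 and 4 with a median of -0.11 after centring and 6 and 7 with a median of 0.01 after quantile normalisation, and 8 to 10 of these 13 calls remained with 1 array at 18 °C or 27 °C left out, fewest without 18 °C replicate 1.

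Of 43 described probe sets for the proteasome, ubiquitin ligases and proteases, chosen on these arrays, 20 rose, 6 fell and 17 were not called (-1.05 to 1.10, median of the 43 0.69). This share of 60.5% called and this median lay near those of all described probe sets (58.0%, median 0.60). After centring 25 rose and 3 fell, and after quantile normalisation 13 rose and 7 fell. With 1 array at 18 °C or 27 °C left out 9 to 17 of the 26 calls remained, fewest without 27 °C replicate 2. Of 11 such probe sets with an array symbol 3 rose and 1 fell, the autophagy gene ATG3A (-0.86 ± 0.19), with a median of 0.43. ATG3A, noted after its value was seen, was lost without any 1 array at 18 °C or 27 °C, without 23 °C replicate 2 or 3, with the 6 arrays alone and after centring (adjusted p of at most 0.144). Of these 4 calls 1 to 3 remained with 1 array at 18 °C or 27 °C left out, fewest without 18 °C replicate 1 or 27 °C replicate 2 or 3. FtsH protease 8, which clears damaged proteins from thylakoids, gave 16.003, 15.93 and 15.80 at 18 °C, against 14.37, 14.01 and 14.31 at 27 °C (1.68 ± 0.17, adjusted p = 0.000652). It stood 0.25 ± 0.17 above the same arrays at 23 °C (not called). A C3HC4 RING finger gene, of a class of ubiquitin ligases, gave 14.87, 14.68 and 13.63 at 18 °C, against 9.94, 11.20 and 11.19 at 27 °C (3.62 ± 0.56, adjusted p = 0.00687), and another probe set of that locus rose by 2.97 ± 0.43. An M28 peptidase rose by 1.53 ± 0.20, while an F-box gene, whose class selects proteins for ubiquitin tagging, fell (-1.75 ± 0.22). Core proteasome subunits noted after their values were seen were PAE1 (0.68 ± 0.11) and beta subunit C1 (0.86 ± 0.12).

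Of 33 described probe sets for ribosomes and translation, also chosen on these arrays, 13 rose, 2 fell and 18 were not called (-0.67 to 1.26, median of the 33 0.63), while 14 rose and 1 fell after centring and 9 rose and 2 fell after quantile normalisation. The share called was 45.5%, below the 58.0% of all described probe sets, whose median was 0.60. Of these 15 calls 7 to 10 remained with 1 array at 18 °C or 27 °C left out, fewest without 18 °C replicate 2 or 27 °C replicate 2. Of 4 with an array symbol 1 rose (RPS13), a call lost without 18 °C replicate 1 or 2 or 27 °C replicate 1 or 2 (adjusted p of at most 0.0759), and the median was 0.28. Ribosomal protein S4 of the small subunit gave 16.05, 15.82 and 15.97 at 18 °C, against 14.81, 14.86 and 15.16 at 27 °C (1.00 ± 0.16, adjusted p = 0.0067). A ribosomal protein of the L1p/L10e family rose by 0.93 ± 0.14. A gene of the eukaryotic release factor 1 family, matched to Pelota, rose by 0.98 ± 0.15. A gene matched to tRNA-dihydrouridine synthase, a tRNA-modifying enzyme, fell (-1.93 ± 0.31). In the RNA and DNA list, nucleosome assembly protein 1;2, a histone chaperone, rose by 1.81 ± 0.20, 2 RNA polymerase genes by 1.67 ± 0.17 and 1.56 ± 0.21, and genomes uncoupled 1, a plastid protein known for signalling from chloroplast to nucleus, by 1.34 ± 0.20. The RNA helicase RH39 rose by 2.03 ± 0.38 and stayed called without 27 °C replicate 2 but not without any other array at 18 °C or 27 °C (adjusted p between 0.0505 and 0.0928).

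The cell wall list had the highest median of the lists named by array symbol, but several of its probe sets belong to 1 gene, CEL12. Of 11 such probe sets 4 rose and 7 were not called (-0.47 to 1.42), with a median of 1.00 beside 0.05 over all bright probe sets. PRP2, a proline-rich structural wall protein, gave 15.27, 13.94 and 14.74 at 18 °C, against 11.41, 10.16 and 10.94 at 27 °C (3.81 ± 0.49, adjusted p = 0.00245). The other 3 risers were probe sets of CEL12, and its uncalled probe sets lay at 0.67 and 1.00. The median of the list is thus itself a CEL12 value, and it counts probe sets rather than genes. Glucan synthase-like 3, of the family that makes callose, was tighter, with 14.75, 14.56 and 14.69 at 18 °C, against 12.57, 11.84 and 11.82 at 27 °C (2.59 ± 0.21, adjusted p = 0.000126). Of 15 described wall probe sets, chosen on these arrays, 8 rose and 1 fell (median 1.04), against 9 and 0 after centring and 7 and 2 after quantile normalisation, but only 2 to 6 of the 9 calls remained with 1 array at 18 °C or 27 °C left out, fewest without 18 °C replicate 1 or 2 or 27 °C replicate 3. A cellulose synthase (2.98 ± 0.65) was lost without any 1 of these 6 arrays (adjusted p between 0.0695 and 0.154), without 23 °C replicate 3 (0.0711) and after quantile normalisation (0.0523).

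Phenylpropanoid genes supply lignin and phenolic compounds. Of 8 described probe sets, chosen on these arrays, 4 rose and 3 fell (median 0.29), and 4 to 6 of the 7 calls remained with 1 array at 18 °C or 27 °C left out, fewest without 18 °C replicate 2 or 27 °C replicate 3. Phenylalanine ammonia lyase 1, the entry enzyme, gave 14.42, 13.97 and 13.34 at 18 °C, against 11.53, 11.48 and 10.35 at 27 °C (2.79 ± 0.33, adjusted p = 0.0016). Cinnamoyl-CoA reductase 1, the first enzyme specific to lignin, rose by 1.93 ± 0.26. An O-methyltransferase fell, with 8.77, 9.29 and 8.63 at 18 °C, against 11.44, 11.49 and 11.24 at 27 °C (-2.49 ± 0.38, adjusted p = 0.00629). Of 13 probe sets with an array symbol 4 rose, among them 4CL2 (1.93 ± 0.37) and CYP98A2 (2.15 ± 0.37), and the median was -0.13. C4H, the step after the ammonia lyase, lay at -0.13 and 4CL3 at -0.03 (neither called). 4CL2 lost its call without 18 °C replicates 1, 2 or 3 or 27 °C replicates 2 or 3 (adjusted p between 0.0503 and 0.0816), and CYP98A2 without 18 °C replicate 1 (0.0659) or 3 (0.0513), and another CYP98A2 probe set lay at -0.17 (not called). At 23 °C phenylalanine ammonia lyase 1 lay 2.64 ± 0.33 above the same 27 °C arrays and cinnamoyl-CoA reductase 1 lay 1.34 ± 0.26 above them, both called.

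Of 12 water channel probe sets with an array symbol 1 rose, 2 fell and 9 were not called (-1.04 to 0.48, median of the 12 -0.24), and of 4 described ones, chosen on these arrays, 2 rose and 2 fell. PIP2-6, a plasma membrane water channel, gave 15.90, 15.74 and 15.54 at 18 °C, against 12.93, 12.96 and 12.73 at 27 °C (2.86 ± 0.28, adjusted p = 0.000437), and the described PIP2;4 rose by 1.75 ± 0.26. Delta tonoplast integral protein, a water channel of the vacuole, gave 13.06, 12.58 and 13.52 at 18 °C, against 15.39, 15.27 and 14.99 at 27 °C (-2.16 ± 0.27, adjusted p = 0.00219). A second probe set of it fell by 1.71, a call lost without 18 °C replicate 1 (adjusted p = 0.0619) or 2 (0.0655) or 27 °C replicate 1 (0.0627) or 2 (0.059), and PIP1-6 fell by 1.91, a call lost without 27 °C replicate 2 (0.0555) or 3 (0.0503). Among other transporters 10 of 15 described probe sets rose and 1 fell (median 1.32), chosen on these arrays, with 8 or 9 of the 11 calls remaining with 1 array at 18 °C or 27 °C left out. None of the 4 with an array symbol was called by limma (-0.93 to 0.55, median -0.17). An MtN21/EamA-like transporter gave 14.35, 14.15 and 14.63 at 18 °C, against 9.60, 10.41 and 9.37 at 27 °C (4.58 ± 0.26, adjusted p = 1.83e-05). A MATE transporter matched to a citrate exporter gave 14.04, 13.88 and 13.56 at 18 °C, against 10.08, 9.54 and 10.16 at 27 °C (3.90 ± 0.22, adjusted p = 1.83e-05). Another of the MATE family, matched to transparent testa 12, which carries flavonoids into the vacuole, fell (-2.60 ± 0.34), while vacuolar sorting receptor 6, which directs proteins to the vacuole, rose (3.11 ± 0.38).

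Of 6 described clock and light-signalling probe sets, chosen on these arrays, 3 rose, 2 fell and 1 was not called (median 1.06), and 4 of the 5 calls remained with any 1 array at 18 °C or 27 °C left out. GIGANTEA, a clock protein that links day length to flowering, gave 12.44, 12.19 and 11.86 at 18 °C, against 8.65, 8.35 and 8.88 at 27 °C (3.54 ± 0.28, adjusted p = 0.000126). A gene of the NPH3 family, whose founder acts in bending towards light, gave 13.21, 12.96 and 13.003 at 18 °C, against 9.67, 10.36 and 9.95 at 27 °C (3.06 ± 0.24, adjusted p = 0.000126). Pseudo-response regulator 7, a daytime clock repressor, gave 10.31, 10.55 and 10.43 at 18 °C, against 12.25, 11.95 and 12.72 at 27 °C (-1.88 ± 0.24, adjusted p = 0.00224). The blue-light receptor cryptochrome 2 fell by 1.41, with 18 °C leaflets of 13.21 to 13.44, against 14.56 to 14.88 at 27 °C. Of 4 probe sets with an array symbol, with a median of -0.02, COL10 fell (-1.22 ± 0.11) and CRY2B, also a cryptochrome 2 by its symbol, rose (0.80 ± 0.17, adjusted p = 0.0342), both noted after their values were seen. CRY2B lost its call without any 1 array at 18 °C or 27 °C, without 23 °C replicate 3, with the 6 arrays alone and after quantile normalisation (adjusted p of at most 0.134). The rise of ELF4-like 4 (1.27 ± 0.29, adjusted p = 0.0465) was lost without any 1 array at 18 °C or 27 °C (adjusted p between 0.0747 and 0.158), without 23 °C replicate 3 (0.0717) and after quantile normalisation (0.0504), and its other probe set was not called (0.85). Clock transcripts change through the day, and the time of sampling is not given in the sources used here, so time of day cannot be told apart from temperature.

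Transcription factors named by array symbol were called in 8.82% of cases, near the 9.21% of all bright probe sets. Of 34 such probe sets 2 rose (WRKY23 by 1.39 ± 0.21 and MYB118 by 0.79 ± 0.17), 1 fell (MYB57 by 1.25) and 31 lay between -1.01 and 1.70, with a median of -0.13. WRKY23 gave 11.55, 11.79 and 11.97 at 18 °C, against 10.42, 10.42 and 10.30 at 27 °C (adjusted p = 0.00632). MYB118 and MYB57 lost their calls without any 1 array at 18 °C or 27 °C (adjusted p between 0.0583 and 0.146 for MYB118 and between 0.0631 and 0.147 for MYB57), without 23 °C replicate 3 (0.0654 and 0.067) and after quantile normalisation (0.0568 and 0.0532), and MYB57 also after centring (0.0668). Of 12 described factors, chosen on these arrays, 4 fell and 1 rose (4 and 3 after centring, 4 and 0 after quantile normalisation). A YABBY gene, of a family that shapes leaf blades, gave 11.89, 11.66 and 12.07 at 18 °C, against 14.61, 14.30 and 14.12 at 27 °C (-2.47 ± 0.22, adjusted p = 0.000271). A factor matched to bHLH93 gave 12.19, 12.74 and 12.02 at 18 °C, against 14.72, 14.43 and 14.24 at 27 °C (-2.15 ± 0.20, adjusted p = 0.000342). GBF's pro-rich region-interacting factor 1 fell by 1.77, and a gene that the study's text calls MYB173 fell by 1.16. At 23 °C the YABBY (-0.30 ± 0.22), the bHLH93-like (-0.12 ± 0.20) and the GBF-interacting factor (-0.21 ± 0.20) were not called against the same 27 °C arrays.

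The study's text singles out 11 probe sets of regulators and chaperones, of which 6 are bright. Besides MYB118 and MYB173, the chloroplast chaperone heat shock protein 21 rose (12.99, 13.40 and 12.78 at 18 °C, against 11.62, 11.16 and 11.88 at 27 °C, 1.50 ± 0.24, adjusted p = 0.00814). At 23 °C it lay 2.23 ± 0.24 above the same 27 °C arrays (called). NAC domain protein 17 (0.90 ± 0.21, adjusted p = 0.0548), WHIRLY 2 (0.89 ± 0.24, adjusted p = 0.0981) and a WD40 protein (0.40 ± 0.12, adjusted p = 0.154) were not called by limma. Of 17 heat shock and chaperone probe sets with an array symbol 1 was called, HSP17.5-E at -1.07 ± 0.24, which was lost after centring (adjusted p = 0.0721), without any 1 array at any temperature (between 0.0551 and 0.163) and with the 6 arrays alone (0.0852). The others lay between -0.62 and 1.05, and 2 of them were called higher after centring. Of 12 described ones, chosen on these arrays, 4 rose and 1 fell (median 0.60). The 3 probe sets of a locus matched to a protein disulfide isomerase, which folds secreted proteins, rose by 1.23 ± 0.14 to 1.52 ± 0.30, the largest not called without 18 °C replicates 1, 2 or 3 or 27 °C replicates 2 or 3 (0.0636 to 0.11).

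Of 15 hormone probe sets with an array symbol 1 rose and 5 fell, with a median of -0.57, and 2 to 5 of the 6 calls remained with 1 array at 18 °C or 27 °C left out, fewest without 18 °C replicate 1, 27 °C replicate 1 or 27 °C replicate 3. SABATH1, of a family of methyltransferases acting on hormones, rose (1.67 ± 0.23). The gibberellin-regulated GASA3 (-2.40 ± 0.50) and GASA14 (-1.95 ± 0.38) fell, with 10.01, 8.81 and 10.55 for GASA3 at 18 °C, against 12.35, 11.82 and 12.39 at 27 °C. GASA3 lost its call without 18 °C replicate 1 (adjusted p = 0.0898) or 2 (0.1) or 27 °C replicate 1 (0.111), 2 (0.0767) or 3 (0.117), and GASA14 without the same arrays (0.0591 to 0.113). The auxin receptor AFB3B, noted after its value was seen, fell by 1.46. Of 8 described probe sets, chosen on these arrays, 5 rose and 1 fell (median 1.44), and 3 to 5 of these 6 calls remained, fewest without 18 °C replicate 1 or 2 or 27 °C replicate 2 or 3. Ethylene-forming enzyme, which completes the making of this hormone, rose on 3 probe sets, by 1.82 ± 0.20, 1.71 ± 0.16 and 1.56 ± 0.11, with 15.67, 15.49 and 14.95 on the first at 18 °C, against 13.38, 13.84 and 13.42 at 27 °C.

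None of 22 kinase, phosphatase and calcium-signalling probe sets with an array symbol was called by limma at adjusted p under 0.05 (-0.63 to 0.98, median -0.04). Of 16 described ones, chosen on these arrays, 4 rose and 3 fell, against 7 and 1 after centring, and 4 or 5 of the 7 calls remained with 1 array at 18 °C or 27 °C left out, fewest without 18 °C replicate 2 or 27 °C replicate 3. CBL-interacting protein kinase 9, a kinase of calcium signalling, gave 14.90, 15.15 and 14.87 at 18 °C, against 12.99, 13.24 and 13.29 at 27 °C (1.80 ± 0.14, adjusted p = 0.000126), and it lay 1.75 ± 0.14 above these arrays at 23 °C. Among defence genes NRP-A, with a domain known from development and cell death, gave 14.54, 14.34 and 14.42 at 18 °C, against 11.82, 12.09 and 11.17 at 27 °C (2.74 ± 0.21, adjusted p = 0.000126). A chitinase, which attacks fungal walls, rose by 2.50 ± 0.23, BAX inhibitor 1, a suppressor of cell death, by 1.27 ± 0.14 and CYSTATIN, a protease inhibitor, by 1.21 ± 0.18. A CAP-domain gene fell (-2.34 ± 0.42), a call lost without 18 °C replicate 1 (adjusted p = 0.0645) or 2 (0.0714) or 27 °C replicate 1 (0.0571), 2 (0.0735) or 3 (0.0632). In the lipid list an AMP-dependent synthetase gave 13.98, 14.33 and 12.69 at 18 °C, against 9.14, 8.70 and 9.35 at 27 °C (4.60 ± 0.49, adjusted p = 0.000798), and sterol methyltransferase 1, an enzyme of membrane sterol synthesis, rose by 1.44 ± 0.21. ATP-citrate lyase A-1, which supplies acetyl-CoA outside mitochondria, fell (-2.51 ± 0.42), narrowly losing its call without 27 °C replicate 3 (adjusted p = 0.0503).

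None of the 7 bright probe sets in the list for cold, dehydration and abscisic acid was called by limma at adjusted p under 0.05. Of all bright probe sets 9.21% were called, and of those with a symbol 13.6%, so a lack of calls in so short a list says little. The 6 with an array symbol, which include ICE2, DREB and PM37, lay between -0.24 and 0.50, with a median of 0.25. The described one lay at -0.85, and it was called lower after quantile normalisation (-0.94).

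Most calls without a usable name cannot be described by function, and 326 of the 646 belonged to them (194 higher, 132 lower). The largest rise among them was of a probe set with 13.54, 13.38 and 12.95 at 18 °C, against 8.21, 3.28 and 7.22 at 27 °C (7.05 ± 0.94, adjusted p = 0.00324), and the largest fall of a probe set with 10.73, 8.76 and 10.24 at 18 °C, against 17.03, 16.81 and 16.71 at 27 °C (-6.94 ± 1.09, adjusted p = 0.00759). The first averaged 6.24 at 27 °C, under the medians of those arrays (8.05 to 8.11), and it had a wide spread there through replicate 2, so the size of its rise is uncertain, and the second was among the brightest probe sets at 27 °C. At 23 °C the 3 leaflets of the second ranged from 10.95 to 16.39.

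Set side by side on the same genes, the levels at 23 °C took several forms, and since both contrasts use the same 27 °C arrays no comparison of their calls is drawn. Near their 18 °C level at 23 °C stood NADP-malic enzyme 4, phosphofructokinase 7, CHLH, phytoene synthase, NDH-dependent cyclic electron flow 1, phenylalanine ammonia lyase 1, cryptochrome 2 and CBL-interacting protein kinase 9. Near their 27 °C level stood enolase, GAPC1, glucose-6-phosphate/phosphate translocator 2, alpha-glucan phosphorylase 2, S-adenosyl-L-homocysteine hydrolase, FtsH protease 8, nitrite reductase, delta tonoplast integral protein and the YABBY gene. The genes near their 27 °C level were also called between 18 °C and 23 °C. Among the rises these differences ran from 1.43 ± 0.17 for FtsH protease 8 to 4.04 ± 0.37 for the translocator. The genes were grouped as far from 27 °C at 18 °C and near it at 23 °C. Their calls between 18 °C and 23 °C follow largely from that choice and are no further support. Others stood between, among them NRP-A (1.27 ± 0.21 above 27 °C at 23 °C) and the MtN21/EamA-like transporter (1.71 ± 0.26), while heat shock protein 21 (2.23) and pseudo-response regulator 7 (-2.55) differed more from 27 °C at 23 °C than at 18 °C. Over all bright probe sets 300 (4.28%) were called between 18 °C and 23 °C.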

How the data were processed

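Total RNA of 9 leaflets was hybridised to the Affymetrix Soybean GeneChip. The deposited log2 values were made by the authors with RMA (robust multi-array average, version not given in the sources used here) after probe selection by hybridisation of bambara groundnut genomic DNA, at a threshold the table does not state. The genomic DNA column held no values. All 9 arrays, 36578 probe sets, were fitted in limma 3.58.1 (R 4.3.3, lmFit and eBayes with trend and robust options, 6 residual degrees of freedom, two-sided), with Benjamini-Hochberg adjustment over all probe sets and a threshold of 0.05. The code was tested on simulated data. Bright probe sets average at least 10. Named genes were the 15 largest called differences in each direction without overlap between arrays, up to 5 called probe sets per gene list, and regulators named in the study's text. Members and lists were chosen with earlier results of these data known. Alternatives changed the spread estimate, arrays, scaling, block and thresholds. P-values set each difference against the spread between these leaflets, estimated over all 9 arrays and drawn towards that of probe sets at a similar level. The number of arrays limits precision. Columns of the table left unused numbered 0 besides the genomic DNA array. No probe sequences were used.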

Additional observations from a re-analysis of the deposited data

How the results depend on the processing

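Of 646 bright probe sets called between 18 °C and 27 °C (406 higher, 240 lower at 18 °C), 12 were called by limma with 1 common prior spread and no robust option (11 higher, 1 lower). The methods' gene-by-gene test, run over all probe sets without the study's detection filter, called 0 after adjustment (0 higher, 0 lower), while 2292 had an unadjusted p under 0.05 in limma. Adjustment over the bright probe sets alone, with the fit made on them, called 1322 (813 higher, 509 lower). Leaving out 1 of the 9 arrays gave 316 to 713 calls (194 to 442 higher, 111 to 271 lower), lowest without 27 °C replicate 2. The fit with the 6 arrays at 18 °C and 27 °C called 568, centring 708 and quantile normalisation 621, and level thresholds of 9 and 11 gave 705 and 554. No called probe set changed sign in any alternative. Of 121 named calls, 89 were made under all of 14 alternatives other than the common prior spread and the methods' test. List medians changed sign for 5 of 50 lists after centring and for 3 after quantile normalisation.

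With the replicate number as a block 609 were called (376 higher, 233 lower), 547 of them among the 646. The labels do not say that equal numbers mark 1 plant, and deviations of same-numbered arrays correlated at -0.033 to 0.207, so the numbers were not treated as pairs. Of the 121 named calls the block ended 5, those of MYB57 (adjusted p = 0.0675), pyrophosphorylase 4 (0.0522), ELF4-like 4 (0.062), HSP17.5-E (0.0816) and an exostosin (0.0548). Small differences on dim probe sets, with a median SD of 0.352 at levels of 10 to 11, are the least detectable.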
